A study of Mus musculus with 18 samples.

Results

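The 48 genes described here carry cells through G2 phase, mitosis and cytokinesis. They were taken by gene symbol from a table of 24411 symbols, and all 48 were present. Each passed the filter of at least 1 TPM (a gene's share of all transcripts, corrected for transcript length and scaled to the same total in each library) in 3 or more libraries, which left 11548 genes for testing. The level without stimulation alone was enough for each of them to pass.

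The values came from poly(A) RNA of RAW264.7, a continuously dividing macrophage-like cell line from mouse. Kdm7a-deficient cells (KO), made with CRISPR/Cas9, were set against cells that received a control guide RNA (control), and each genotype was kept for 48 h under M1, M2 or M0 conditions. M1 cells received 2 ng/ml of mouse interferon gamma together with 0.1 µg/ml of bacterial lipopolysaccharide. M2 cells received 20 ng/ml of mouse IL-4, IL-10 and IL-13 plus human TGF-beta 1 at 2 ng/ml, and M0 cells were not stimulated. Each of the 6 groups had 3 libraries (n = 3 for every mean ± SD). Whether the libraries of a group came from separate cultures is not given in the labels, so the p-values rest on a spread that may be technical. The submitters' design names 1 knockout line and does not say whether it is a clone, so other differences between it and the control cells cannot be told apart from the loss of Kdm7a. Kdm7a itself, which encodes a histone demethylase, stood at 7.19 to 7.66 TPM in KO M1 libraries against 28.7 to 30.3 TPM in control M1, at 5.83 to 7.54 TPM in KO M2 against 22.2 to 24.5 TPM in control M2, and at 3.25 to 3.52 TPM in KO M0 against 10.96 to 11.29 TPM in control M0.

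Entry into mitosis is driven by the kinase Cdk1 bound to a B-type or A-type cyclin. Exit begins when the anaphase promoting complex marks cyclins and securin for destruction. Most of these genes share one timing: they are repressed in resting cells by the DREAM complex and activated in G2 by the MuvB core with B-Myb and Foxm1. These factors act through a promoter element called the CHR, often together with CCAAT boxes bound by the factor NF-Y.

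Promoter sequences of the set are shown first. Whether promoter motifs bear on the expression changes described below was not tested. RefSeq promoter windows on GRCm38.p6, from 250 bases before to 50 after the gene's start, were found for 38 of the 48 genes, which had 41 windows. A CHR, searched as TTTGAA or TTCGAA on both strands, was present in 33 of the 41 windows (80.5%), against 14.1% of the 11171 windows of all tested genes and 19.2% of all 32851 windows. CCAAT, on either strand, was likewise present in 33 of 41 (80.5%), against 38.2% and 37.4%, and 51.2% held at least 2 copies against 14.5% and 11.7%. The GC-rich motif GGCGG, on either strand, was present in 92.7%, against 79.1% and 48.8%. The median GC content was 59.0% in the members' windows, 60.7% in those of tested genes and 52.7% in all. Both a CHR and a CCAAT were found for 27 of the 38 genes. The windows of Birc5, Ccnb1, Cenpe, Mad2l1, Ncaph, Nek2, Nuf2 and Pttg1 held no CHR in these letters. A shorter search, from 150 bases before the start, gave a CHR in 78.0% of members' windows against 8.07% and 12.0%. It gave a CCAAT in 75.6% against 30.5% and 28.6%. For GGCGG it gave 80.5% against 75.4% and 45.0%, so the members then stood close to the tested genes. A CCAAT box can overlap its own other-strand form, as once in Ube2c, or the other-strand form of GGCGG, and each was counted. A match describes the sequence and is not evidence of binding.

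The windows printed below are from the genes with the largest M1 changes among those that have a window with a CHR and at least 2 CCAAT boxes: Ube2c (ubiquitin-conjugating enzyme of the anaphase promoting complex) at chr2:164769679-164769948 on the plus strand, and, on the minus strand, Cdc20 (its activator) at chr4:118437324-118437593, Ccnb2 (cyclin B2) at chr9:70421535-70421804 and Top2a (topoisomerase II alpha) at chr11:99024170-99024439. Each is written in the gene's own direction, from 250 bases before to 20 after the start. Capitals mark each CHR and each CCAAT, including the other-strand forms TTCAAA and ATTGG.
Ube2c: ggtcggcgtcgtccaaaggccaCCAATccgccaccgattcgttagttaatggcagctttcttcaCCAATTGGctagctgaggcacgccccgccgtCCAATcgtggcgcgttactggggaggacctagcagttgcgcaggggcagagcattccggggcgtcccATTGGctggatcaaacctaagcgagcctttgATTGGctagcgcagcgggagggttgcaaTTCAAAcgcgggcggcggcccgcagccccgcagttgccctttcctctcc
Cdc20: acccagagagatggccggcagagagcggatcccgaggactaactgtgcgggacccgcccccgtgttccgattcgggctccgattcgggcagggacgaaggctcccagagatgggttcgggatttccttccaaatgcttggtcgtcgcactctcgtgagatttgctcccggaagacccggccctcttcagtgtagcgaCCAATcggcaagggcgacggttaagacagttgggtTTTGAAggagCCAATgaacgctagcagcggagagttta
Ccnb2: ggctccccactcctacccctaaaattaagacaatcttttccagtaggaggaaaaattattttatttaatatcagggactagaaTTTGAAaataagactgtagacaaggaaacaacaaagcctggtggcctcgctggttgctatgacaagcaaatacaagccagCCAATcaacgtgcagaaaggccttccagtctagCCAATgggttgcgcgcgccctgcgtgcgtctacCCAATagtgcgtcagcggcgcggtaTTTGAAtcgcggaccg
Top2a: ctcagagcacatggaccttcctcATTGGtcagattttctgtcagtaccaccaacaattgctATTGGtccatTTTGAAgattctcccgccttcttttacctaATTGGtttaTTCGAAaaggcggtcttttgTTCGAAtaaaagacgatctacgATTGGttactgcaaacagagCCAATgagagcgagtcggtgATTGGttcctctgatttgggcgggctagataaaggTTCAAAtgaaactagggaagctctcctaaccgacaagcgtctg
In Ube2c, Cdc20 and Top2a a CHR stood 29, 18 and 23 bases before the start. In Ccnb2 one CHR lay 5 bases after the start and another 167 bases before it. The CCAAT boxes of Ccnb2 stood 87, 54 and 21 bases before the start. The 48 genes themselves lay on 15 chromosomes, with 8 of them on chromosome 2.

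Summed over the 48 genes, mitotic transcripts were by far the lowest under M1, reduced under M2 and most abundant without stimulation. The sum was 301, 296 and 302 TPM in the KO M1 libraries and 348, 344 and 363 TPM in control M1. Under M2 it was 4280, 4308 and 4345 TPM in KO cells and 5141, 5048 and 5113 TPM in control cells. At M0 it was 7303, 7338 and 7353 TPM in KO cells and 7080, 7139 and 7074 TPM in control cells. Both stimuli thus gave sums below every M0 library, and KO sums were below control sums under M1 and M2 and above them at M0, with no overlap in any condition. These transcripts made up 0.0300% of all TPM in KO M1, 0.0351% in control M1, 0.431% in KO M2, 0.510% in control M2, 0.733% in KO M0 and 0.710% in control M0. A few genes weigh heavily in the sums. Under M1, Pttg1 and Bub3 had means of 66.2 and 65.9 TPM in KO and 69.9 and 69.6 TPM in control cells. At M0, Stmn1 had a mean of 610 TPM in KO and 513 TPM in control cells, while 42 of the 48 genes were not called between genotypes. The libraries hold bulk RNA, so fewer cells in G2 and mitosis cannot be told apart from less of these transcripts in each such cell. TPM are also shares of a fixed total, so a strong rise of other genes lowers them. All 10 macrophage markers checked, among them Cd68, Csf1r and Adgre1, were at 1 TPM or more in every group. Their summed level was 6784 to 6935 TPM in KO M1, 7353 to 7465 in control M1, 4230 to 4434 in KO M2, 4984 to 5149 in control M2, 5392 to 5486 in KO M0 and 6418 to 6575 in control M0. It was lower in KO cells in each condition, and its part in the results was not tested. Among markers of fibroblasts, epithelium, T cells, B cells and endothelium, Ms4a1 and Epcam were at 0 throughout, and those that reached 1 TPM in a group were Cd79a, Pecam1, Cdh1 and Col1a2. Cd79a was at 19.6 to 21.2 TPM in KO M2 and 13.1 to 14.9 TPM in control M2, and at most 2.54 TPM in the other groups. The endothelial list summed to 25.4 to 28.0 TPM in KO M1, 20.7 to 22.0 TPM in control M1, 2.33 to 2.83 TPM in KO M2 and at most 1.01 TPM in the others. The part of these markers in the results was not tested either.

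**Figure D1:**
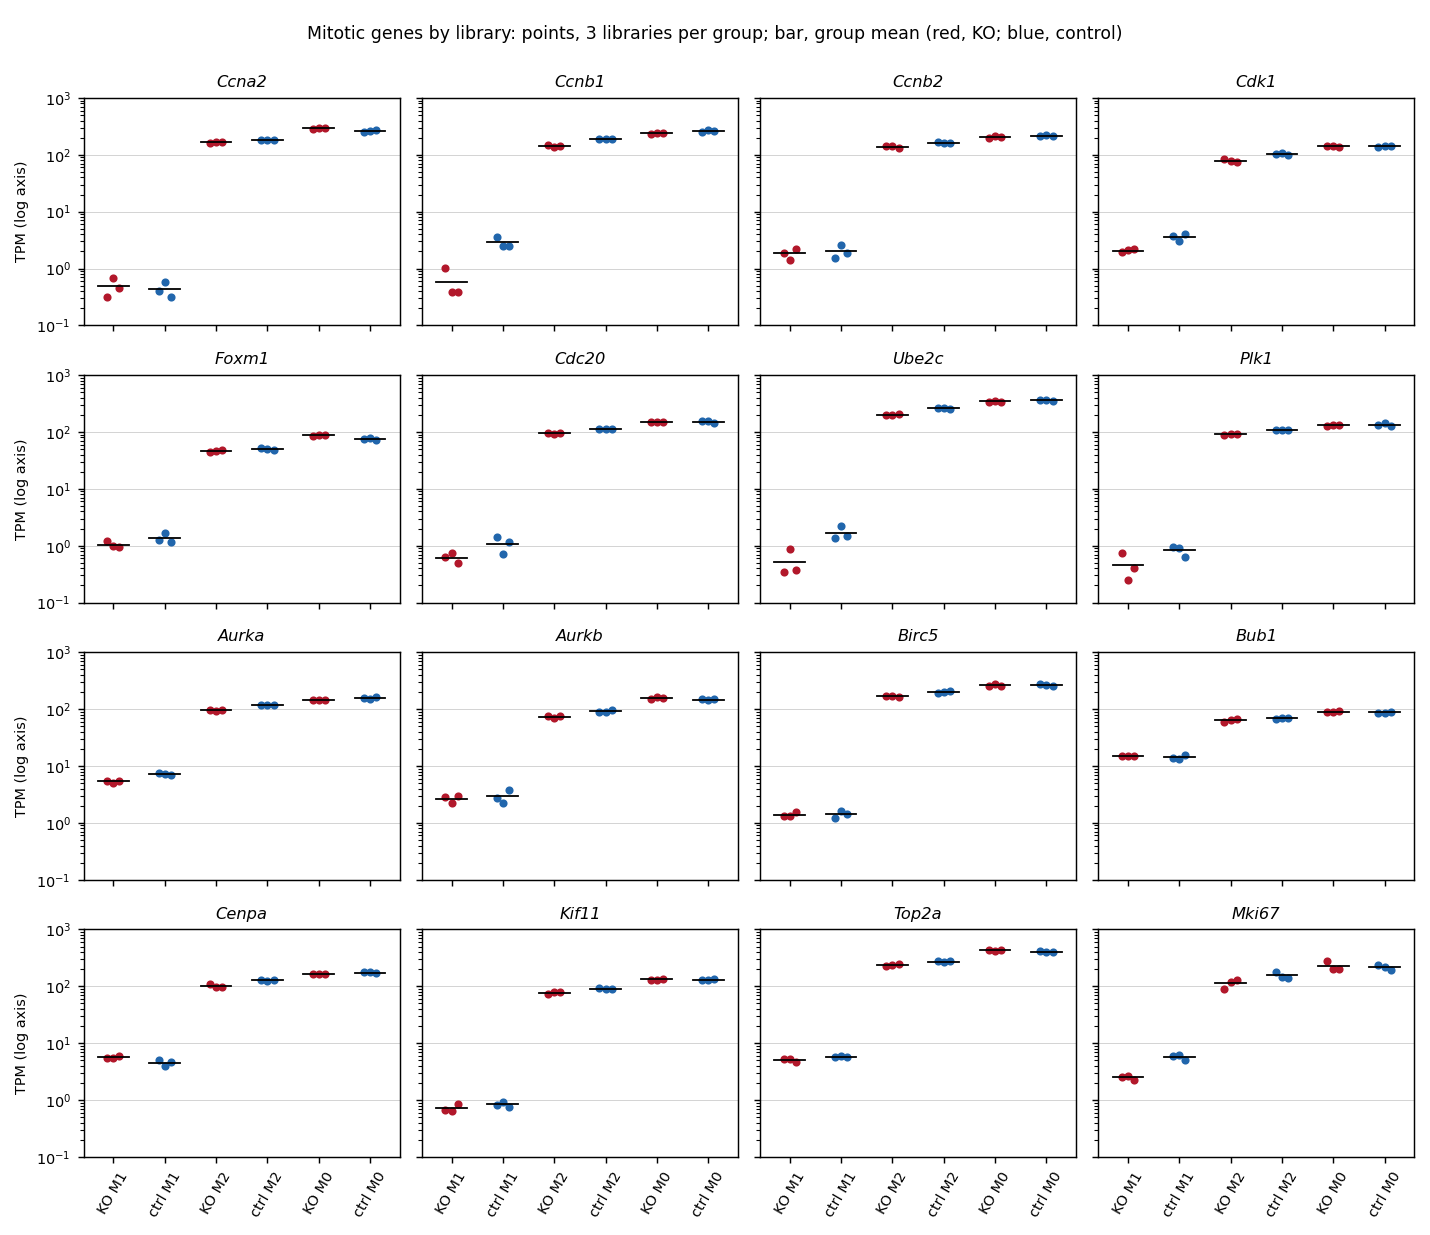
TPM of 16 mitotic genes on a log axis. Each point is 1 library, red for KO and blue for control, and each bar is the mean of 3 libraries. M1 points lie far below M2 and M0 points in all 16 genes, M2 means lie below M0 means, and Bub1, at 13.5 to 15.6 TPM, is the highest of the 16 under M1.

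The M1 response of KO cells covered all 48 genes. Each was lower than at M0 by limma-trend on log2(TPM + 1) with Benjamini-Hochberg adjustment over all tested genes, called at an adjusted p below 0.05 (limma is a linear model with variances moderated across genes). This background was wide: 90.3% of tested genes were called in KO cells, 58.4% lower and 32% higher. All 48 fell by at least 2-fold. The median log2 fold change was -5.41 for the 48 genes and -0.43 for all tested genes, and KO M1 cells kept a median of 1.36% of their M0 level. Control cells gave the same count of 48 lower, against 89.1% of tested genes called (56.9% lower, 32.2% higher), with a median of -5.02 for the 48 genes and -0.38 for all tested genes. They kept a median of 1.97%. With TMM factors, which centre the bulk of genes, the median of all tested genes under M1 moved to 0.04 in KO and 0.05 in control cells, and that of the 48 genes to -5.02 and -4.66.

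Among the cyclins, Ccna2 (cyclin A2, which binds Cdk1 and Cdk2) was almost silent under M1. Its level was 0.31, 0.69 and 0.45 TPM in KO M1 libraries against 287, 297 and 295 TPM in KO M0. Control cells had 0.41, 0.59 and 0.31 TPM under M1 against 255, 267 and 273 TPM at M0. The M1 and M0 libraries were far apart in both genotypes, with log2 fold changes of -7.64 (SE 0.07, limma adjusted p = 4.52e-25) in KO and -7.54 (adjusted p = 7.35e-25) in control cells. Ccnb1 and Ccnb2 encode the B-type cyclins of mitotic entry. Ccnb2 stood at 1.88, 1.44 and 2.23 TPM in KO M1 and 1.53, 2.58 and 1.87 TPM in control M1, against 198, 218 and 204 TPM in KO M0 and 211, 219 and 213 TPM in control M0. Its M1 libraries overlapped between genotypes. Cdk1, the kinase itself, was at 1.95, 2.08 and 2.19 TPM in KO M1 and 3.78, 3.04 and 4.04 TPM in control M1, against 140.5, 143 and 138 TPM in KO M0 and 137, 144 and 145 TPM in control M0. It kept 1.48% of its M0 level in KO and 2.55% in control cells. Foxm1, the activator of the programme, stood at 1.19, 0.98 and 0.93 TPM in KO M1 against 86.4, 86.8 and 88.03 TPM in KO M0, and at 1.28, 1.67 and 1.18 TPM in control M1 against 75.6, 77.7 and 73.1 TPM in control M0. Of the phosphatases that switch Cdk1 on, Cdc25c kept under 1% in both genotypes, whereas Cdc25b kept 4.25% in KO and 9.16% in control cells.

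The partners of the anaphase promoting complex were near silent under M1 but for Pttg1. Ube2c had 0.35, 0.86 and 0.37 TPM in KO M1 against 337, 357 and 341 TPM in KO M0, a log2 fold change of -7.84 and the largest of the 48 in KO cells. Control cells had 1.36, 2.26 and 1.48 TPM under M1 against 359, 365 and 353 TPM at M0. Cdc20 was at 0.63, 0.74 and 0.49 TPM in KO M1 and 1.42, 0.72 and 1.14 TPM in control M1, against 149, 149.8 and 152 TPM in KO M0 and 153, 155 and 145 TPM in control M0. Both genes were below 3 TPM in every M1 library. Espl1 (separase, the protease that opens cohesin rings) kept 0.253% in KO and 0.336% in control cells. Pttg1 (securin, the inhibitor of separase) had 66.4, 61.8 and 70.3 TPM in KO M1 against 172, 184 and 181 TPM in KO M0, and 68.3, 66.6 and 74.8 TPM in control M1 against 182, 195 and 171 TPM in control M0. It still fell without overlap (log2 fold change -1.42 in KO, limma adjusted p = 7.89e-15, and -1.37 in control, adjusted p = 1.53e-14), but by the least of the 48 genes in both genotypes. Under M1 its level was the highest of the 48 in control cells and in KO cells, in means of 66.2 TPM for KO and 69.9 TPM for control.

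Among mitotic kinases, Plk1 (polo-like kinase 1, needed for spindle assembly and mitotic entry) was at 0.74, 0.25 and 0.4 TPM in KO M1 and 0.93, 0.91 and 0.64 TPM in control M1, against 127, 134 and 135 TPM in KO M0 and 132, 142 and 128 TPM in control M0. Aurka (Aurora A, a centrosome kinase) kept more, with 5.52, 5.09 and 5.55 TPM in KO M1 against 144, 144 and 147 TPM in KO M0, and 7.55, 7.34 and 6.92 TPM in control M1 against 155, 153 and 161 TPM in control M0. Nek2, a kinase of centrosome separation, kept 0.397% in KO and 1.16% in control cells. The chromosomal passenger complex, which corrects the attachment of chromosomes to the spindle, was uneven. Its survivin subunit Birc5 was at 1.33, 1.30 and 1.54 TPM in KO M1 and 1.20, 1.60 and 1.42 TPM in control M1, against 260.2, 273 and 259.8 TPM in KO M0 and 272, 269.7 and 257 TPM in control M0. Its kinase Aurkb was at 2.83, 2.24 and 2.97 TPM in KO M1 and 2.77, 2.22 and 3.79 TPM in control M1, against 152, 162 and 156 TPM in KO M0 and 148, 143 and 152 TPM in control M0. Its scaffold Incenp, by contrast, was at 26.03, 27.7 and 28.3 TPM in KO M1 and 36.8, 39.1 and 40.9 TPM in control M1, against 177, 181 and 179 TPM in KO M0 and 168, 168 and 159 TPM in control M0. Incenp thus kept 15.3% in KO and 23.6% in control cells, and borealin (Cdca8) 2.82% and 3.31%.

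The spindle checkpoint delays anaphase until all chromosomes are attached. Bub1, one of its kinases, was at 14.8, 15.2 and 14.98 TPM in KO M1 and 14.1, 13.5 and 15.6 TPM in control M1, against 88.6, 90.4 and 91.4 TPM in KO M0 and 86.5, 86.5 and 89.5 TPM in control M0. Bub3, the partner of Bub1 and Bub1b, was at 66.8, 67.01 and 63.8 TPM in KO M1 and 67.8, 66.5 and 74.6 TPM in control M1, against 188, 204 and 199.6 TPM in KO M0 and 195, 201 and 201 TPM in control M0. Both fell without overlap but kept 16.6% (Bub1) and 33.4% (Bub3) of M0 in KO cells, and 16.4% and 34.99% in control cells. Bub1b, Ttk and Mad2l1, the other members of the checkpoint, kept between 0.634% (Ttk) and 1.54% (Mad2l1) in KO cells, and between 0.829% (Bub1b) and 2.80% (Mad2l1) in control cells.

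The 7 centromere and kinetochore genes kept a median of 0.495% in KO and 1.0% in control cells. Cenpa, the histone variant that marks centromeres, was at 5.48, 5.40 and 6 TPM in KO M1 and 5, 3.95 and 4.60 TPM in control M1, against 166, 165 and 166 TPM in KO M0 and 175, 176 and 171 TPM in control M0. Cenpe kept 2.70% in KO and 5.66% in control cells, and Cenpf, a large kinetochore protein, 0.0888% and 0.203%. The Ndc80 complex (Ndc80, Nuf2, Spc24, Spc25), which grips microtubules, held a gene listed at 0: Spc24 had 0, 0.17 and 0.33 TPM in KO M1 against 0.42, 0.56 and 0.31 TPM in control M1. Its partner Ndc80 kept 0.434% in KO and 1% in control cells, Nuf2 0.495% and 0.748%, and Spc25 2.78% and 3.73%. Among spindle proteins, Kif11, the motor that pushes the spindle poles apart, was at 0.66, 0.64 and 0.84 TPM in KO M1 and 0.83, 0.93 and 0.76 TPM in control M1, against 128, 132 and 137 TPM in KO M0 and 129.7, 131 and 133 TPM in control M0. Kif2c, a microtubule depolymerase, was at 0.04, 0.08 and 0 TPM in KO M1 and 0.23, 0.23 and 0.18 TPM in control M1. Hmmr, a spindle assembly factor, kept 1.05% in KO and 1.98% in control cells, Kif20a 1.34% and 1.5%, and Tpx2 8.19% and 9.46%. Stmn1 (stathmin, a protein that destabilises microtubules) was the most abundant of the 48 at M0, with 621, 591 and 619 TPM in KO M0 and 539.5, 501 and 498 TPM in control M0. Under M1 it was at 1.40, 1.93 and 1.92 TPM in KO and 2.74, 3.94 and 3.47 TPM in control cells, a log2 fold change of -7.80 in KO and -6.88 in control cells.

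The 7 genes of condensin and the mitotic chromosome kept a median of 5.02% in KO and 5.55% in control cells, and Smc4, a core subunit, kept 14.5% and 17.6%. The other condensin subunits were Smc2 with 5.99% kept in KO and 8.29% in control cells, Ncapd2 with 3.18% and 3.40%, Ncapg with 5.02% and 5.55%, and Ncaph with 5.20% and 6.42%. Top2a, which untangles sister DNA, was at 5.35, 5.33 and 4.59 TPM in KO M1 and 5.68, 5.94 and 5.70 TPM in control M1, against 435, 424 and 441 TPM in KO M0 and 413, 404 and 409 TPM in control M0. Mki67, the proliferation marker that coats mitotic chromosomes, was at 2.57, 2.66 and 2.27 TPM in KO M1 and 5.88, 6.11 and 5.10 TPM in control M1, against 275, 199 and 202 TPM in KO M0 and 237, 218 and 195 TPM in control M0. The 5 genes of the central spindle and cytokinesis (Kif23, Prc1, Racgap1, Ect2, Anln) kept between 1.37% and 3.26% in KO cells and between 1.94% and 6.07% in control cells. In all, 18 of the 48 genes kept under 1% in KO cells, and 16 of 48 in control cells. The 12 that kept 5% or more in control cells were Cdc25b, Pttg1, Incenp, Bub1, Bub3, Cenpe, Tpx2, Smc2, Smc4, Ncapg, Ncaph and Kif23. The mean under M1 was below 1 TPM for 16 genes in KO and 10 in control cells, where log2(TPM + 1) understates the change. The lowest share kept, 0.0558% in KO cells, belongs to Kif2c and includes the library at 0.

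**Figure D2:**
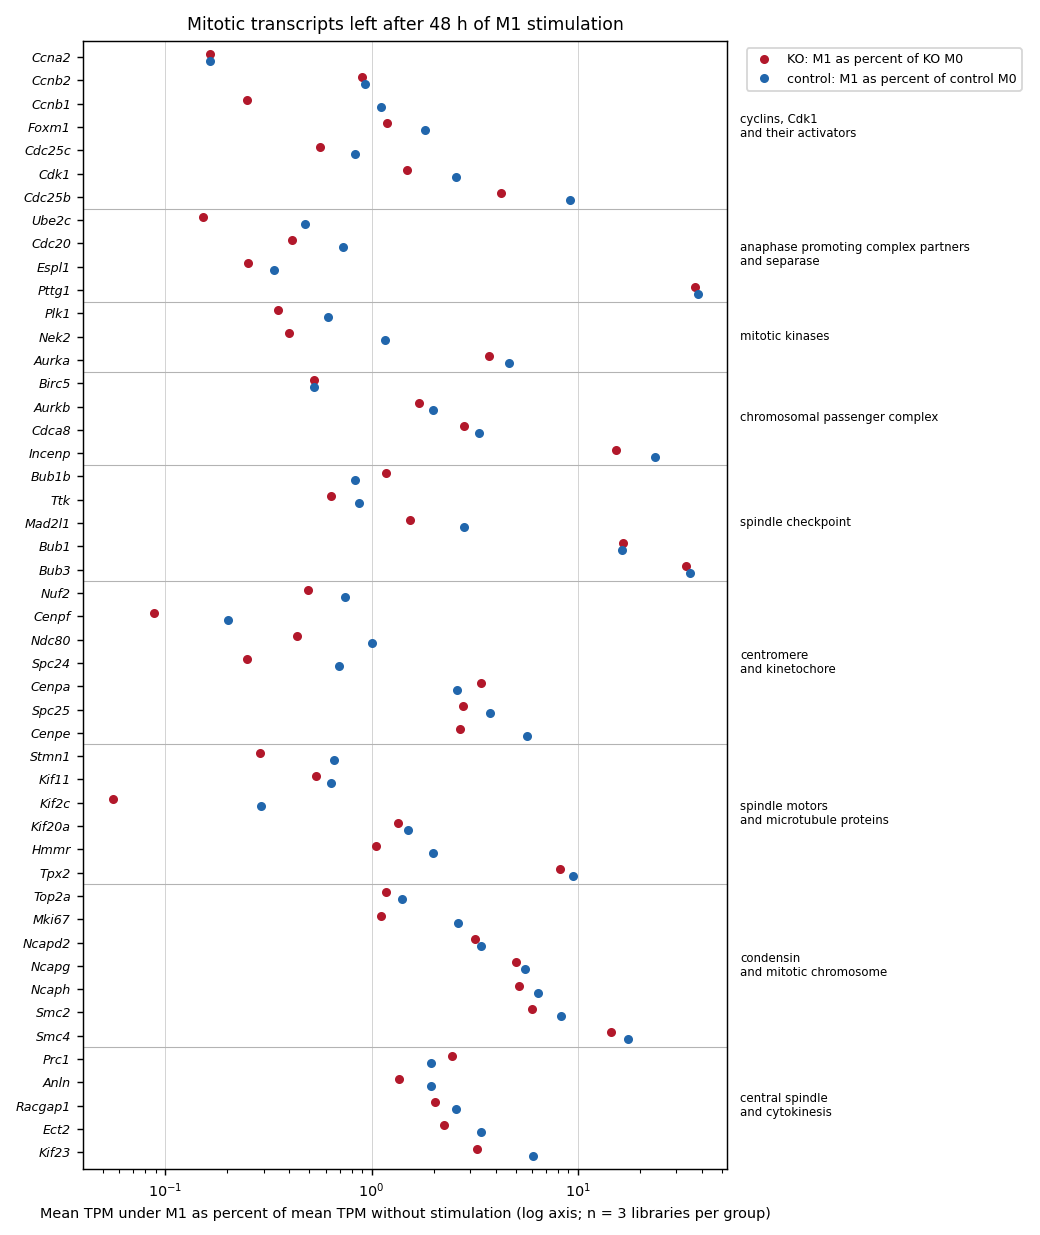
Mean TPM under M1 as a percent of mean TPM at M0, on a log axis, for the 48 genes by role, with KO in red above control in blue (3 libraries per group). The KO means of Kif2c and Spc24 each include a library listed at 0. Pttg1, Bub3, Incenp, Smc4 and Bub1 lie farthest right, and Ccna2, Cenpf, Kif2c and Ube2c lie near the left edge.

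M2 stimulation lowered the same genes far less. All 48 were called lower in KO cells, where 72.9% of tested genes were called, 43.2% lower and 29.6% higher. The median log2 fold change was -0.73 for the 48 genes and -0.09 for all tested genes, and KO cells kept a median of 60.1% of M0, from 44.0% to 74.5%. In control cells 47 of 48 were called lower, against 65.4% of tested genes called (37% lower, 28.4% higher). The median there was -0.45 against -0.05 for all tested genes, and the share kept was 72.9%, from 59.2% to 90.1%. On the log2(TPM + 1) scale a fall of at least 2-fold was reached by 3 genes in KO cells (Cenpf, Aurkb and Stmn1) and by 0 in control cells. By mean TPM, 6 genes in KO cells were at 50% or less of M0, with Nek2, Espl1 and Mki67 just under it, and 0 in control cells. With a pseudocount of 0.1 TPM, 47 were called in KO and 40 in control cells.

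Stmn1 and Aurkb were among the most lowered in both genotypes. Stmn1 was at 290.4, 284 and 288 TPM in KO M2 and 303, 290.2 and 318 TPM in control M2, a log2 fold change from M0 of -1.08 in KO (limma adjusted p = 3.42e-09) and -0.75 in control cells (adjusted p = 4.96e-07). Aurkb was at 75.3, 69.5 and 74.8 TPM in KO M2 and 90.5, 89.96 and 95.8 TPM in control M2, a change of -1.09 and -0.68. Both genes lay below every M0 library of their genotype. Cenpf fell most in KO cells, to 20.7, 26.96 and 26.7 TPM in KO M2 against 64.5, 50.8 and 53.7 TPM in KO M0 (-1.15, limma adjusted p = 9.19e-10). In control cells it was at 37.1, 32.05 and 32.2 TPM under M2 against 57.4, 53.5 and 51.9 TPM at M0 (-0.67, adjusted p = 2.74e-06). Nek2 was at 59.4, 60.5 and 61.7 TPM in KO M2 and 67.3, 69.4 and 69.5 TPM in control M2, against 117, 126 and 122 TPM in KO M0 and 114, 113 and 114 TPM in control M0.

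The least lowered genes were of the spindle midzone, the checkpoint and the spindle. Prc1, which bundles microtubules between separating chromosomes, was at 103, 104 and 101 TPM in KO M2 against 135, 137 and 142 TPM in KO M0, a log2 fold change of -0.42 (limma adjusted p = 1.61e-05). In control cells Prc1 was at 116, 118 and 119 TPM under M2 against 127, 132 and 132 TPM at M0, a change of -0.15 that was not called (limma adjusted p = 0.0621), although the libraries did not overlap. It was called when only the groups compared were fitted. Kif20a, a motor of cytokinesis, was at 83.3, 86.5 and 83.1 TPM in KO M2 and 104, 106 and 106 TPM in control M2, against 112, 120.0 and 117 TPM in KO M0 and 121, 125 and 120.4 TPM in control M0, a change of -0.46 in KO and -0.21 in control cells (limma adjusted p = 0.0334). The control call for Kif20a was lost when any one of the 6 control M0 and M2 libraries was left out. Bub3 was at 149, 143 and 145 TPM in KO M2 and 174, 169 and 167 TPM in control M2, a change of -0.44 in KO and -0.23 in control cells. Tpx2, which nucleates spindle microtubules, was at 91.8, 97.2 and 101 TPM in KO M2 against 131, 136 and 141 TPM in KO M0 (-0.49), and at 123, 122 and 122 TPM in control M2 against 144, 147 and 146 TPM in control M0 (-0.25). Both stayed below their M0 libraries.

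The central drivers lay between these ends. Ccna2 was at 163, 168 and 170.0 TPM in KO M2 and 181, 184 and 181 TPM in control M2. Cdk1 was at 83.7, 78.1 and 75.2 TPM in KO M2 and 102, 106 and 99.4 TPM in control M2. Foxm1 was at 44.5, 46.7 and 48.1 TPM in KO M2 and 53.01, 51.1 and 47.6 TPM in control M2. All of these were below the M0 libraries given above, and for Ccna2 and Cdk1 every KO library was also below every control library, while the Foxm1 libraries overlapped. Among role groups, the median share kept under M2 ran between 57.2% (spindle checkpoint) and 65.8% (mitotic kinases) in KO cells, and between 69.0% (spindle checkpoint) and 77.4% (spindle motors and microtubule proteins) in control cells.

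**Figure D3:**
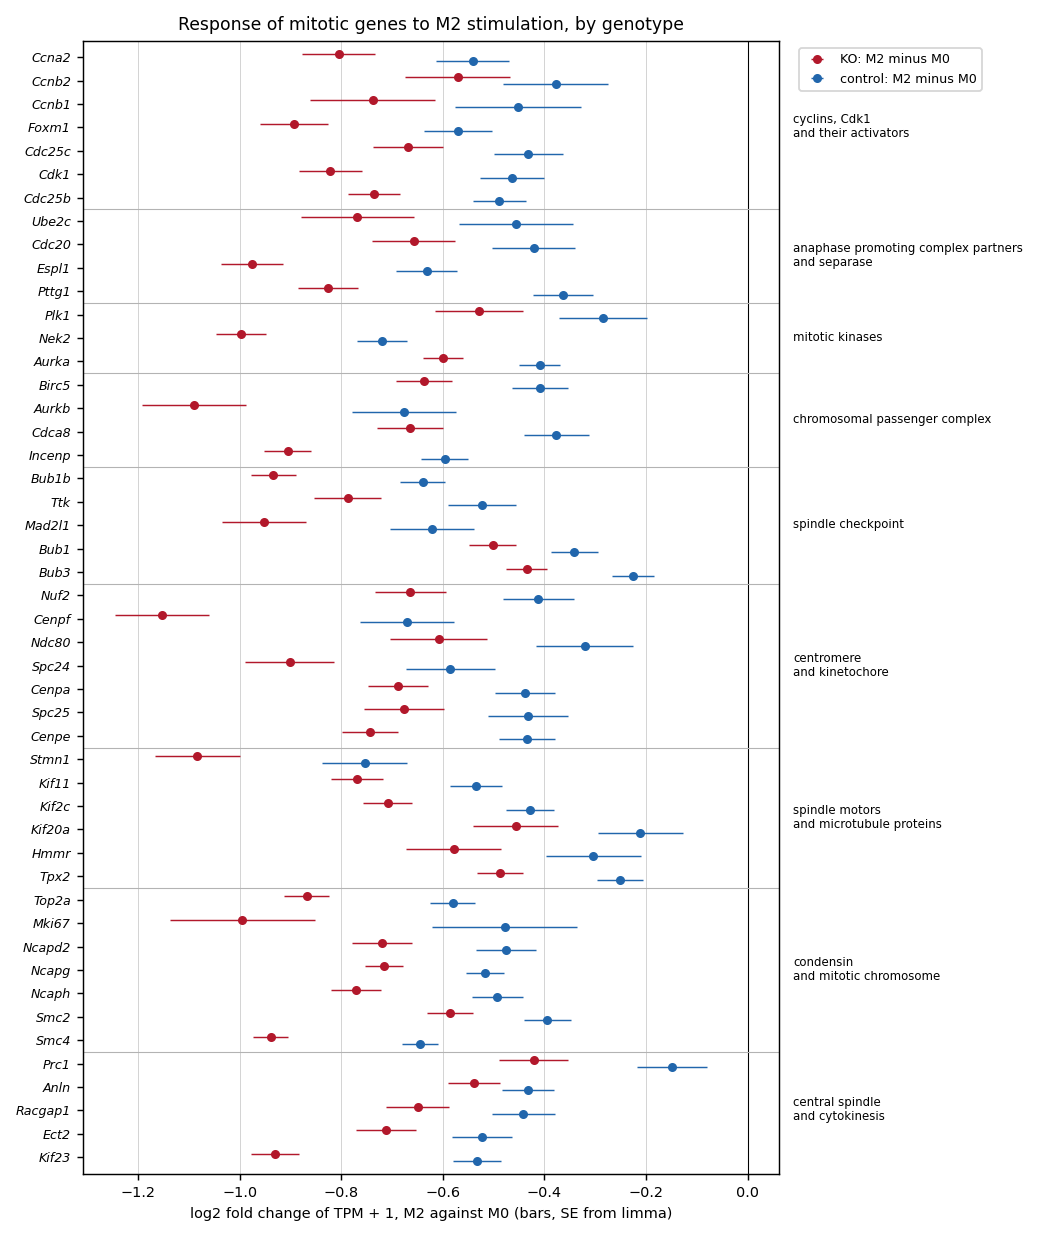
Log2 fold change of TPM + 1, M2 against M0, for the 48 genes by role, KO in red above control in blue, with bars for the SE from limma (3 libraries per group). Every red point lies left of its blue point, from -1.15 to -0.42 in KO and from -0.75 to -0.15 in control cells.

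Without stimulation, few mitotic genes were called different between KO and control cells. In M0 cells 6 of the 48 genes were called higher in KO, 0 lower and 42 were not called, so that 12.5% were called against a background of 19.2% of tested genes (8.86% higher, 10.3% lower). The median log2 difference was 0.03. Smc4 had 178, 175 and 175 TPM in KO M0 against 138, 141 and 148 TPM in control M0, without overlap (0.30, limma adjusted p = 2.72e-06). Stmn1 (0.25, limma adjusted p = 0.0449) and Cdc25b (0.24, adjusted p = 0.00212) were also higher in KO, with Cdc25b at 76.2, 77.7 and 79.6 TPM in KO M0 against 65.4, 67.1 and 64.3 TPM in control M0. The others were Foxm1 (0.20), Kif23 (0.18), a kinesin of the central spindle, and Bub1b (0.16), at 189, 188 and 191 TPM in KO M0 against 170.4, 167 and 169 TPM in control M0. In all 6 genes the KO libraries lay above the control libraries. The count was 3 without control M0 replicate 2, and 4 or 5 when another M0 library was left out. Leaving out control M0 replicate 2 removed Stmn1, Foxm1 and Bub1b. Foxm1 was lost when any one M0 library was left out, and Stmn1 when any one was except control M0 replicate 1. With only the 2 groups fitted, 10 were called, 8 higher and 2 lower. The count was 4 without a filter or with a pseudocount of 0.1 TPM, and 5 with TMM factors or without a variance trend.

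Under M1, 29 of the 48 genes were lower in KO and 3 were higher, against a background of 50.3% of tested genes called (33.4% lower, 16.9% higher). The median log2 difference was -0.23, against -0.06 for all tested genes, and KO M1 cells had a median of 74.3% of the control M1 level. With a pseudocount of 0.1 TPM the median was -0.41. These differences lie on the low levels that M1 leaves, so many of them concern a few TPM. Ccnb1 differed most, with 1.01, 0.38 and 0.38 TPM in KO M1 against 3.61, 2.50 and 2.53 TPM in control M1 (-1.30, SE 0.12, limma adjusted p = 4.71e-07). Its libraries did not overlap. Mki67 was at the values given above, a difference of -0.93 (limma adjusted p = 8.33e-05), and Ube2c differed by -0.82 (adjusted p = 1.72e-05), both without overlap. Cenpe, the motor that carries chromosomes to the spindle equator, was at 1.54, 1.80 and 1.62 TPM in KO M1 against 3.53, 3.71 and 3.51 TPM in control M1 (-0.79). Cdc25b was at 3.74, 3.12 and 3.07 TPM in KO M1 against 6.14, 6.13 and 5.76 TPM in control M1 (-0.70), the opposite direction to M0. Incenp, which stayed well above 1 TPM, differed by -0.50 without overlap.

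The 3 genes higher in KO M1 were Bub1b, Prc1 and Cenpa. Bub1b, the checkpoint protein BubR1, had 2.03, 2.14 and 2.49 TPM in KO M1 against 1.40, 1.39 and 1.41 TPM in control M1 (0.42, limma adjusted p = 2.08e-07). Prc1 had 3.72, 3.22 and 3.23 TPM in KO M1 against 2.19, 2.33 and 3.13 TPM in control M1 (0.31, limma adjusted p = 0.000717). Cenpa differed by 0.27 (limma adjusted p = 0.000876). In all 3 every KO library lay above every control library. The smallest differences called were those of Foxm1 (-0.22), Ncapg (-0.16), a condensin subunit at 5.17, 5.31 and 5.16 TPM in KO M1 against 6.02, 5.95 and 5.84 TPM in control M1, and Top2a (-0.16). The Foxm1 call was lost without control M1 replicate 2 and the Top2a call without KO M1 replicate 3, and all 3 were lost when only the groups compared were fitted. Of the 16 genes not called, all but Cenpf and Smc4 had overlapping libraries. Cenpf was at 0.06, 0.05 and 0.04 TPM in KO M1 against 0.12, 0.11 and 0.1 TPM in control M1 (-0.08), and Smc4 differed by 0.03.

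Under M2 the KO cells had lower mitotic transcripts across all roles. There 36 of the 48 genes were lower in KO and 0 higher, against 30.9% of tested genes called (18.3% lower, 12.7% higher). For 43 of 48 genes every KO library lay below every control library, against 25.5% of tested genes. The median log2 difference was -0.24, against -0.03 for all tested genes, so that KO M2 cells had a median of 84.4% of the control M2 level. With a pseudocount of 0.1 TPM 21 were called.

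Pttg1, the gene least lowered by M1, differed most between genotypes under M2. It had 109, 96.01 and 96.4 TPM in KO M2 against 144, 145 and 136 TPM in control M2 (-0.49, limma adjusted p = 3.56e-06). Mki67 had 91.3, 118 and 128 TPM in KO M2 against 178, 146 and 142 TPM in control M2 (-0.47, limma adjusted p = 0.0227), without overlap but with wide spread, and its call was lost without control M2 replicate 1, without KO M2 replicate 1 or when only the groups compared were fitted. Cenpf differed by -0.44 (limma adjusted p = 0.00121), again without overlap. Ccnb1 had 149.7, 135 and 141 TPM in KO M2 against 190.0, 193 and 186 TPM in control M2 (-0.42). Ube2c had 202, 199 and 205 TPM in KO M2 against 267, 259.8 and 257 TPM in control M2 (-0.37). Both were lower in all KO libraries.

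The same held for much of the machinery. Aurka was at 97.4, 92.1 and 96.5 TPM in KO M2 against 118, 116 and 119 TPM in control M2 (-0.30), and Plk1 at 87.3, 93.4 and 92.9 TPM against 109, 110.1 and 109 TPM (-0.26). Cdc20 was at 95.7, 93.2 and 95.5 TPM in KO M2 against 112, 113 and 112 TPM in control M2 (-0.24). Birc5 was at 173, 171 and 164 TPM in KO M2 against 192, 198 and 211 TPM in control M2 (-0.24). In none of these did the groups overlap. Cenpa (-0.32), Kif11 (-0.22) and Top2a (-0.20) were lower in KO likewise, and Cenpa was thus higher in KO under M1 and lower under M2, as were Bub1b (-0.13) and Prc1 (-0.19). All 4 anaphase promoting complex partners, all 3 mitotic kinases and all 4 chromosomal passenger genes were called lower. So were 4 of 5 checkpoint genes, 4 of 5 central spindle and cytokinesis genes, and 4 of 6 spindle motors and microtubule proteins. The count was 5 of 7 for kinetochore and for condensin and chromosome genes, but 3 of 7 for cyclins, Cdk1 and their activators.

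The smallest differences called under M2 were those of Anln, Smc2 and Bub1b. Anln, a scaffold of the cleavage furrow, was at 61.5, 65.6 and 69.1 TPM in KO M2 against 72.7, 72.5 and 72.9 TPM in control M2 (-0.15). Smc2, the partner of Smc4 in condensin, was at 71.1, 75.6 and 77.9 TPM in KO M2 against 81.8, 81.2 and 85.5 TPM in control M2 (-0.14). Bub1b was at 95.3, 99.8 and 101 TPM in KO M2 against 106, 109 and 109 TPM in control M2, and in none of the 3 did the groups overlap. The Anln call was lost when any one M2 library was left out except KO M2 replicate 3. The Smc2 call was lost without control M2 replicate 3 or KO M2 replicate 1, and the Bub1b call without control M2 replicate 2 or 3 or KO M2 replicate 1 or 2. The 12 genes not called were Bub1, Ccna2, Ccnb2, Cdc25b, Ect2, Foxm1, Hmmr, Ncapd2, Nuf2, Smc4, Spc24 and Stmn1. Of these, Cdc25b was at 46.8, 46.7 and 45.5 TPM in KO M2 against 47.9, 46.5 and 45.03 TPM in control M2, and Smc4 at 91.6, 91.6 and 90.5 TPM in KO M2 against 92.5, 86.3 and 93.6 TPM in control M2, with overlapping libraries in both. Of the 48 genes, 22 were called lower in KO under both M1 and M2, against 9.27% of tested genes, and 34 were called lower under M2 but not called at M0, against 12.5% of tested genes. Bub1, Ccna2, Ccnb2 and Ncapd2 were called in none of the 3 comparisons of genotypes, as were 33.8% of tested genes.

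**Figure D4:**
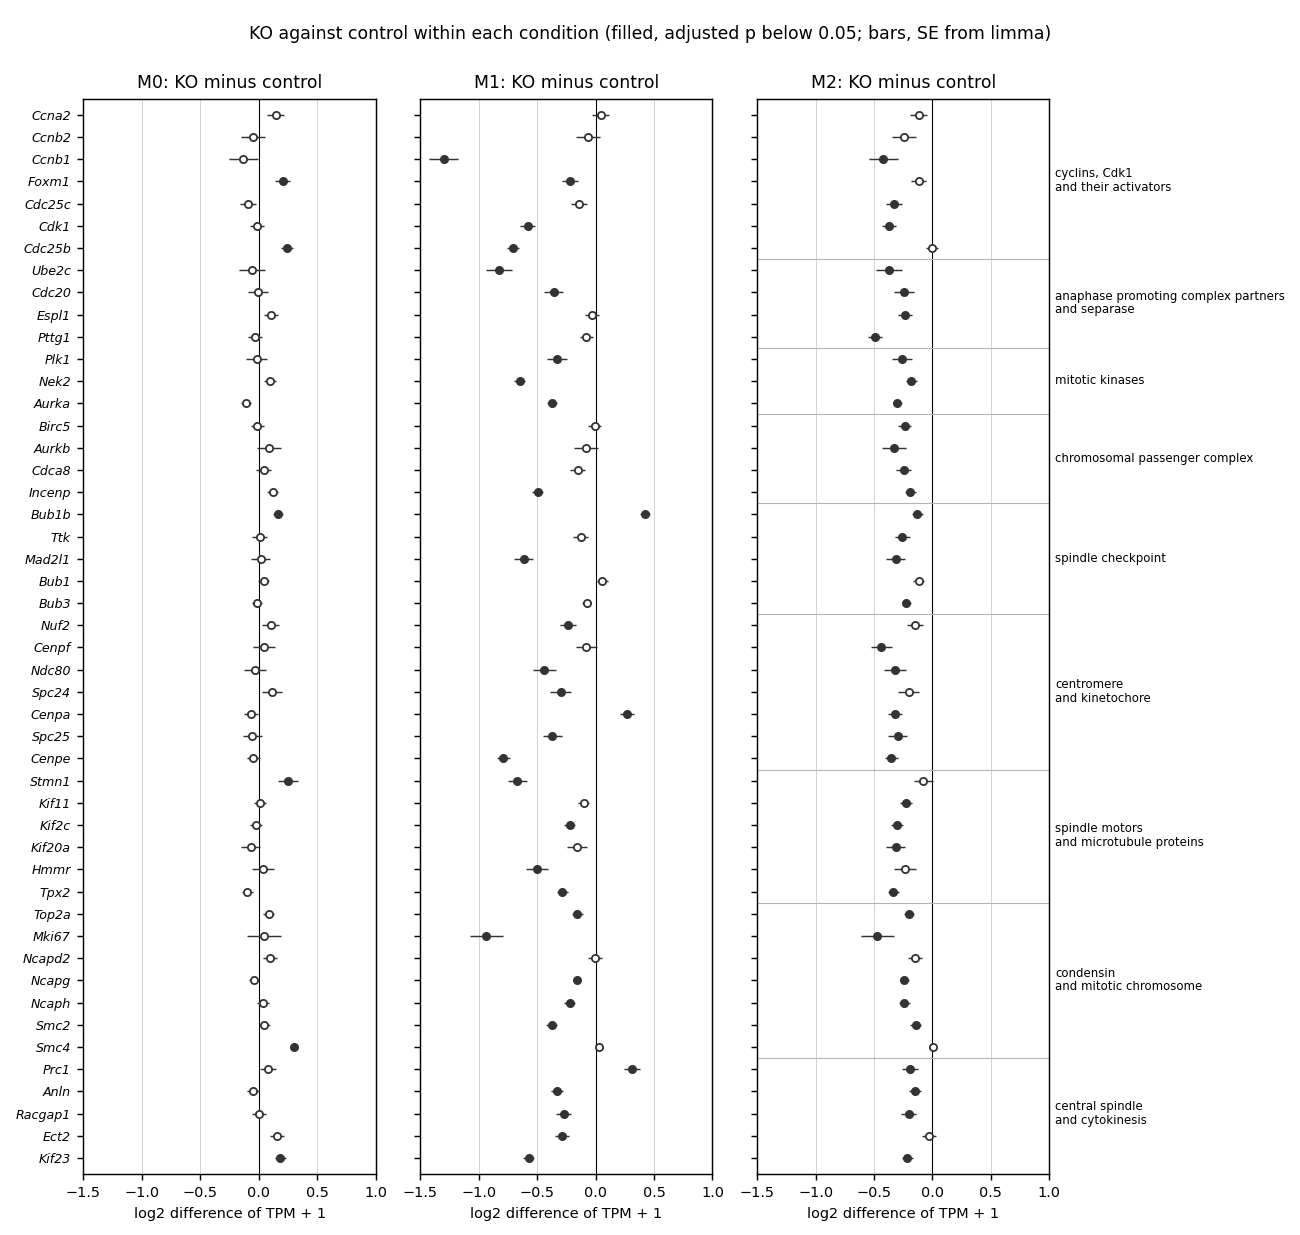
KO minus control difference in log2(TPM + 1) at M0, M1 and M2 for the 48 genes by role, with bars for the SE from limma (3 libraries per group). Filled points passed an adjusted p below 0.05. Points scatter around 0 at M0, spread from -1.30 to 0.42 under M1, and lie between -0.49 and 0.01 under M2.

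The difference between genotypes in each response was tested directly in the same model. For the M2 response, 21 of the 48 genes fell further in KO than in control cells and 0 fell less, against 14.1% of tested genes called (7.05% more negative and 7.06% less negative in KO). All 48 had a more negative M2 fold change in KO, with a median difference of -0.27, against -0.03 for all tested genes. This test shares the M2 libraries with the comparison of genotypes under M2. Cenpf differed most among those called (-0.48, limma adjusted p = 0.0168), followed by Pttg1 (-0.46, adjusted p = 0.000863) and Kif23 (-0.40, adjusted p = 0.00044). The smallest called were Bub3 (-0.21), Ncapg (-0.20) and Aurka (-0.19). Kif23 was at 48.1, 50.4 and 51.4 TPM in KO M2 against 94.5, 96.7 and 97.01 TPM in KO M0, and at 58.95, 56.98 and 58.4 TPM in control M2 against 84.3, 84.2 and 85.02 TPM in control M0. Its KO libraries were the higher ones at M0 and the lower ones under M2. The Cenpf call was lost without control M2 replicate 1 or KO M0 replicate 1, and when only these 4 groups were fitted. Leaving out 1 library lost the call of Aurka for 7 of the 12 libraries, of Bub3 for 3 and of Ncapg for 1 (control M2 replicate 3). The count ran from 14 (without control M2 replicate 1) to 21 over the libraries left out, and was 40 when only these 4 groups were fitted. It was 14 with a pseudocount of 0.1 TPM and 17 with TMM factors.

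For the M1 response, 28 genes fell further in KO and 2 less far, against 36% of tested genes called (23.9% more negative, 12.1% less negative). Of the 48 genes, 43 were more negative in KO, with a median difference of -0.27, against -0.07 for all tested genes. Ccnb1 (-1.17, limma adjusted p = 0.000111), Mki67 (-0.98, adjusted p = 0.00179) and Cdc25b (-0.95, adjusted p = 1.05e-08) differed most. Cenpa (0.34) and Bub1b (0.26) fell less far in KO. The smallest called were Top2a (-0.24), Kif2c (-0.20) and Tpx2 (-0.18), of which Kif2c lost its call for 5 and Tpx2 for 6 of the 12 libraries left out. Both tests of responses use the same M0 libraries, and Cdc25b, Smc4 and Foxm1 were higher in KO at M0 and not called under M2.

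Other genes of the pathway were counted in lists chosen, like the 48 genes, with earlier results of these data known. Their counts stand beside 58.4% lower and 32% higher of all tested genes for M1 in KO cells, 56.9% and 32.2% for M1 in control cells, 18.3% and 12.7% for KO under M2, 33.4% and 16.9% for KO under M1, and 10.3% and 8.86% for KO at M0. Of 37 tested mitotic genes outside the set, 35 were lower and 2 higher under M1 in KO cells, and 35 lower and 1 higher in control cells. All 37 were lower under M2 in both genotypes, against 43.2% of tested genes in KO and 37% in control cells. Pbk, a mitotic kinase, fell to 0.203 ± 0.0416 TPM in control M1 against 139.6 ± 7.69 TPM in control M0. Between genotypes, 29 of the 37 were lower and 0 higher in KO under M2, 24 lower and 3 higher under M1, and 0 lower and 2 higher at M0. Ccnf (cyclin F) was at 36.4 ± 2.28 TPM in KO M2 against 48.6 ± 1.17 TPM in control M2 (-0.41, limma adjusted p = 0.000103). It was at 6.69 ± 0.623 TPM in KO M1 against 13.99 ± 1.55 TPM in control M1 (-0.96). The 17 genes listed for the anaphase promoting complex (core subunits, Ube2s, Fzr1 and the inhibitor Fbxo5) moved less. Under M1 in control cells 14 were lower and 1 higher, with a median log2 fold change of -0.86. Of these, 5 were lower and 1 higher in KO under M2. Its inhibitor Fbxo5 (Emi1) had 50.2 ± 1.81 TPM in KO M2 against 62.9 ± 1.96 TPM in control M2 (-0.32, limma adjusted p = 0.00422).

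Of 19 factors of the MuvB, DREAM and RB-E2F group, 15 were lower and 3 higher under M1 in control cells. Mybl2 (B-Myb) fell to 1.03 ± 0.106 TPM in control M1 against 63.1 ± 4.83 TPM in control M0. Under M2, 3 were lower and 1 higher in KO, and at M0 5 were higher and 0 lower. E2f6, a repressor of the E2F family, was the one higher in KO in all 3 conditions. It had 11.5 ± 0.436 TPM in KO M1 against 6.92 ± 0.33 TPM in control M1, 38.8 ± 1.51 TPM in KO M2 against 21.9 ± 0.396 TPM in control M2 (0.80, limma adjusted p = 2.12e-10) and 46.4 ± 0.305 TPM in KO M0 against 25.2 ± 1.21 TPM in control M0. The 3 NF-Y subunits were lower under M1 in control cells. Between genotypes 0 of 3 was called under M2, while under M1 Nfyb was called higher in KO (0.18, limma adjusted p = 0.00542). Of 9 tested Cdk inhibitors and inhibitory kinases, 6 were higher and 3 lower under M1 in control cells. Between genotypes, 5 were higher and 3 lower in KO under M1, and 1 was higher and 3 were lower in KO under M2. Cdkn1a (p21, an inhibitor of Cdk complexes) rose under M1, to 1951 ± 28.5 TPM in KO M1 against 157 ± 11.5 TPM in KO M0 (3.63), and to 1693 ± 19.6 TPM in control M1 against 224 ± 9.40 TPM in control M0 (2.92). Its rise was larger in KO (difference 0.71, limma adjusted p = 4.79e-08). It was lower in KO at M0 (-0.51) and under M2, at 276 ± 1.25 TPM against 375 ± 20.4 TPM in control M2 (-0.44, limma adjusted p = 2.82e-07). Of 11 cohesin genes, 10 were lower and 1 higher under M1 in control cells, and 3 were lower and 1 higher in KO under M2. Of 7 genes of the mitotic exit phosphatase module, 6 were lower under M1 in control cells, with a median log2 fold change of -0.39 beside -0.38 for all tested genes, and 1 was lower and 1 higher in KO under M2.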

How the data were processed

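The deposited values are TPM per gene symbol, which the authors computed with the same total in each of the 18 libraries. Per the submitters' processing notes, Trim Galore and the mm10 build were used. Which aligner, quantification tool and annotation were used is not given in the sources used here. Sequencing depth cannot be read from TPM, so it is unknown, and intervals for counting error were not made. How reads shared by close gene copies were assigned is also unknown. Groups came from the sample titles, and columns were matched through the library names in the labels. Of the 153 pairs of libraries, 0 held identical values.

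Tests used limma 3.58.1 (R 4.3.3), with trend and robust moderation, applied to log2(TPM + 1) values of all 6 groups together. A gene was tested if 3 or more libraries had 1 TPM or above, two-sided, with Benjamini-Hochberg adjustment, in 9 comparisons. Libraries outside a comparison also enter its variance. The added 1 TPM makes fold changes of low genes too small. On data simulated for KO against control at M0 (11548 genes), changes of 0.5 and 1 on the log2 scale were recovered in 93% and 100% of cases, and 3.5% of calls were false. The changes were placed only in genes above a low level at M0, with normally distributed noise. No other differences between groups were simulated. These rates therefore do not cover smaller changes or the low levels under M1.

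The members and lists were chosen with earlier results of these data known. The text names all members by role, gives libraries for 16 central genes, the 3 largest and 3 smallest called changes of each comparison, members not called in a response and members called against the majority, and up to 4 called genes with the largest change from each other list. Cenpe, Incenp, Smc4, Cdc25b and a few others given beyond this were chosen after their values were seen. Alternatives were TMM factors (trimmed mean of M-values, computed on the TPM), no filter, a filter of 5 TPM, a pseudocount of 0.1 TPM, no variance trend, only the groups compared, a replicate block, and each library left out. One marker gene is not reported here.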

Additional observations from a re-analysis of the deposited data

Results flagged for a closer look

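The M1 response differed between KO and control cells, by the direct test of that difference in limma, for 30 of the 48 genes. The same test called 36% of all tested genes. On the log2(TPM + 1) scale the difference, KO response minus control response, was -1.17 for Ccnb1, -0.98 for Mki67 and -0.95 for Cdc25b, which fell further in KO cells. It was 0.34 for Cenpa and 0.26 for Bub1b, which fell less far in KO cells. Ccnb1 was at 228, 242 and 240.1 TPM in KO M0 and 248, 269 and 263 TPM in control M0, a difference at M0 that was not called (-0.13, limma adjusted p = 0.523) although the libraries did not overlap.

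The M2 response differed for 21 of the 48 genes, against 14.1% of tested genes. The difference was -0.48 for Cenpf, -0.46 for Pttg1 and -0.40 for Kif23. For all 21 the fall was larger in KO cells.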

How the results depend on the processing

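Over all members and alternatives, 5910 member values kept their side of the threshold, 215 lost a call and 67 gained one. The sign changed for 54 of the 6192 values, all of them called in neither setting and at most 0.09 in size as reported, and for 0 values that were called. Counts of members called that moved by more than 1.5 times were those for KO against control at M0, with 6 as reported and 10 when only the groups compared were fitted, with 3 to 5 when 1 library was left out; for KO against control under M2, 36 and 21 with a pseudocount of 0.1 TPM; and for the genotype difference in the M2 response, 21 and 40 with only the groups compared. For the first of these, leaving out control M0 replicate 2 gave 3. The cause was not tested. With 1 library left out, the count ran from 48 to 48 for M1 in KO and in control cells and for M2 in KO cells, from 46 to 46 for M2 in control cells, from 32 to 33 for KO under M1, from 26 to 35 for KO under M2, from 26 to 30 for the genotype difference in the M1 response and from 14 to 21 for that in the M2 response.

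TMM factors moved the split of all genes called. Under M1 they gave 5339 higher and 5069 lower in KO cells, against 3691 and 6739 without them, and 5351 and 4968 in control cells, against 3716 and 6574. Between KO and control they gave 2777 higher and 3125 lower under M1, against 1954 and 3857, and 1893 and 1610 under M2, against 1462 and 2108. For the genotype differences they gave 1945 and 2249 for M1, against 1399 and 2762, and 992 and 653 for M2, against 815 and 814. The members' own split moved to 5 higher and 29 lower for KO under M1, and 30 were lower and 0 higher for KO under M2.

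Deviations of same-numbered libraries were weakly correlated at most: over 45 pairs the correlation ran from -0.16 to 0.15 (median 0.02), with 7 pairs over 0.1. Over 90 differently numbered pairs it ran from -0.21 to 0.18 (median -0.01), with 6 pairs over 0.1. The labels do not say what a replicate number shares, so the numbers were not taken to pair samples. With a replicate block, 38 members were called for KO under M2, 22 for the genotype difference in the M2 response, 6 for KO at M0, 32 for KO under M1, 30 for the genotype difference in the M1 response, 48 for both M1 responses and for M2 in KO cells, and 47 for M2 in control cells. Depth is unknown, so levels below 1 TPM under M1 carry an unknown counting error.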

Other observations

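Replicate spread was uneven among the genes. Over the M2 and M0 groups the median coefficient of variation of the 48 genes was 2.53% to 3.66%, but Mki67 and Cenpf varied more. Mki67 was at 91.3, 118 and 128 TPM in KO M2 (16.9%) and 275, 199 and 202 TPM in KO M0 (19.2%), and Cenpf at 20.7, 26.96 and 26.7 TPM in KO M2 (14.2%) and 64.5, 50.8 and 53.7 TPM in KO M0 (12.8%). Both genes had their extreme KO values in the libraries numbered 1, low under M2 and high at M0. In control cells the library numbered 1 was the highest for both genes, under M2 and at M0. Mki67 was at 178, 146 and 142 TPM in control M2 and 237, 218 and 195 TPM in control M0. Cenpf was at 37.1, 32.05 and 32.2 TPM in control M2 and 57.4, 53.5 and 51.9 TPM in control M0. The genotype differences of both genes under M2 include these libraries.

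Ensa, an inhibitor of the phosphatase that reverses phosphorylation by Cdk1, was higher in KO in all 3 conditions. Of the 48 genes, most of those called under M1 and all of those called under M2 were instead lower in KO. The few called at M0 were higher in KO, as Ensa was. Ensa was at 204 ± 1.70 TPM in KO M1 against 143 ± 2.63 TPM in control M1 (0.51, limma adjusted p = 1.12e-10), and higher in KO under M2 (0.13, adjusted p = 0.00487) and at M0 (0.18, adjusted p = 0.000262). Cdkn2d, an inhibitor of the Cdk4 and Cdk6 kinases, was at 178 ± 2.69 TPM in KO M2 against 161 ± 1.54 TPM in control M2 (0.14, limma adjusted p = 0.00681), and Gadd45b was lower, at 33.8 ± 2.24 TPM in KO M2 against 48.1 ± 2.10 TPM in control M2 (-0.50, adjusted p = 0.00301).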
